A study of Homo sapiens with 32 samples.

Results

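Mitochondrial ribosomal protein genes were taken as every row whose symbol begins with MRPL or MRPS followed by a digit, which gave 74 of the 13133 genes measured, 46 MRPL and 28 MRPS genes. They were measured by TempO-Seq, a targeted assay in which pairs of detector oligos are ligated on RNA in a lysate and sequenced, in HepG2, a human line derived from a liver tumour. HepG2 cells received silver nanoparticles coated with citrate, with polyethylene glycol (PEG) or with branched polyethylenimine (bPEI) at 1.2 ug/mL, or medium without particles (NoNP), and were lysed after 6, 12 or 24 h. The 32 libraries form 12 groups of exposure and time, 8 of 3 libraries and 4 of 2 (citrate and PEG at 6 h, NoNP and bPEI at 24 h). Nothing in the labels tells whether replicate libraries stem from different cultures. The p-values below therefore speak only of the spread among libraries, which may be technical.

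Mitochondrial ribosomal proteins are encoded in the nucleus, made in the cytosol and imported into mitochondria, where they assemble with mitochondrial ribosomal RNA. The mitochondrial ribosome translates the few mRNAs of the mitochondrial genome, which code for core subunits of the respiratory chain and of ATP synthase. MRPS symbols were given for the small subunit, which binds the mRNA, and MRPL symbols for the large subunit, which joins amino acids, although later structures placed the products of MRPS18A and MRPS30 in the large subunit. MRPS6 encodes the mitochondrial counterpart of a bacterial small-subunit protein, and it is set against the other 73 genes below.

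The MRPS6 gene lies on chromosome 21 (chr21:34073224-34143034, plus strand, GRCh38, GENCODE) and shares the end of its first exon with another gene. The main coding transcript has exons at 34073523-34073745, 34125341-34125480 and 34142408-34143034. SLC5A3, the sodium and myo-inositol cotransporter by which cells take up inositol as an osmolyte, lies inside its span at 34073570-34106262 on the same strand, and its exons are 34073570-34073745 and 34094863-34106262. Both first exons therefore end at the same base, and the RefSeq promoter windows of both genes are identical, the one such pair among the genes matched. The sources used here do not give the sites where the MRPS6 and SLC5A3 oligos bind, so reads from the common first exon could not be assigned to either gene. The promoters of 3 genes are shown because they belong to the gene with the widest range of levels (MRPS6), the gene most like it among the others (MRPS10) and a gene that moved in another way (MRPS31). Sequences are from RefSeq (GRCh38.p14), 5′ to 3′ on the gene's strand, and end just before or near the start of transcription: chr21:34073328-34073522 (plus), chr6:42217866-42218015 (minus) and chr13:40771191-40771340 (minus). Capitals mark the motifs CCGGAAG (bound by ETS factors such as GABPA) and GGGCGG (bound by SP1) on either strand. Matches were sought without overlap, so a match that overlaps a marked match can stay in lower case.
MRPS6: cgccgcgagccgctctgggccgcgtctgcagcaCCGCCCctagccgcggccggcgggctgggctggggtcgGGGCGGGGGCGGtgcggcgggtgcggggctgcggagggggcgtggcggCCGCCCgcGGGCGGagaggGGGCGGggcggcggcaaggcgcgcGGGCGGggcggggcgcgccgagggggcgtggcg
MRPS10: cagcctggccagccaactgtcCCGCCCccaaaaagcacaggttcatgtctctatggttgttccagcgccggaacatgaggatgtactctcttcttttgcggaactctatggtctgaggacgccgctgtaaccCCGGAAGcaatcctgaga
MRPS31: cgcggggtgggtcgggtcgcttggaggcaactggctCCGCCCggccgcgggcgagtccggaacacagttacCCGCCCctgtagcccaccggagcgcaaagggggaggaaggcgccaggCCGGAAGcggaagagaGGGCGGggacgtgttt
The promoter of MRPS6 held 7 matches to GGGCGG, counted without overlap, and no match to CCGGAAG in its 300-base window, whereas the MRPS10 and MRPS31 promoters each held CCGGAAG.

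Across the 66 of 74 genes with a promoter window in RefSeq (250 bases before the start to 50 after), CCGGAAG occurred on either strand in 29, or 43.9%. It occurred in 23.6% of the windows of tested genes and in 10.3% of all windows of the same length. AAGATGGCG, the core bound by YY1, occurred in 18.2% of the 66, in 5.15% of tested genes and in 1.75% of all windows. GCGCA and GCGC with any 1 base between them (bound by NRF1) occurred in 12.1% of the 66 against 14.0% of tested genes, and GGGCGG in 62.1% against 76.7%. CCAAT occurred in 34.8% against 44.0%, and TGGAAA, the core bound by the osmotic stress factor NFAT5, in 19.7% against 20.6%. MRPS6 held none of the 6 motifs searched except GGGCGG. These are matches of letters in a window and no evidence of binding. MRPL2, MRPL10, MRPL13, MRPL15, MRPL21, MRPL23, MRPL35 and MRPS28 had no entry.

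Libraries held 1313855 to 6735072 reads (median 3373855), of which 0.593% to 0.765% fell on the 74 genes, and 63 to 73 of these had at least 1 read in each library. Values are reads divided by a size factor per library, called normalized reads here, and they depend on each gene's oligos, so levels of different genes are not compared. All 9 hepatocyte markers listed were measured with a mean of at least 5, with ALB at a mean of 176339. Of the markers of other cell types, 7 were analysed: COL1A1 (mean 2.26) and COL1A2 (0.152) were near 0, while PECAM1 stood at 9.72, CD68 at 94.6, ACTA2 at 105, PDGFRB at 189 and LYZ at 4045. The summed level of that list ran from 2092 to 8578. The library bPEI 6 h replicate B, and both NoNP 24 h libraries, which differ from each other, had residual variances 2.28 and 2.16 times the average library (a pair of libraries has equal residuals, so which of the NoNP pair stands apart cannot be told). The measurement is of bulk lysate, so fewer transcripts per cell and fewer cells that express a gene cannot be told apart.

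Of the 74 genes, 70 had a mean of at least 5 normalized reads and were tested (43 MRPL and 27 MRPS), and 60 had a mean of at least 20. MRPL11 (mean 2.90), MRPL42 (1.41), MRPL55 (1.61) and MRPS23 (0.876) were left out of all tests. Tests are limma fits on log2(value + 1) over all 9324 tested genes, with Benjamini-Hochberg adjustment within each comparison, and a gene is called at an adjusted p under 0.05. Fold changes are on that log2(value + 1) scale.

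MRPS6 rose with time in cells without particles and was lower in exposed cells at 12 and 24 h. The other genes of the family were called in both directions, and their median leaned up or down in some steps in time. In NoNP MRPS6 stood at 268, 187 and 169 normalized reads in the 3 libraries of 6 h. It stood at 1516, 937 and 1100 in those of 12 h, and at 4685 and 3467 in the pair of 24 h. No library of a later time fell as low as any of an earlier time. MRPS6 was 5.66-fold higher at 12 h than at 6 h (log2 change 2.50 ± 0.30 SE, limma adjusted p = 7.72e-07). From 12 to 24 h it rose by a further 3.47-fold (log2 change 1.80 ± 0.34, limma adjusted p = 0.000299), and over the whole span by 19.7-fold (4.30 ± 0.34, limma adjusted p = 2.02e-11). These 3 calls held under every alternative run, including each left-out library and edgeR. The share of the family's reads that fell on MRPS6 went from 1.005% ± 0.236 (SD, n = 3) at 6 h to 5.28% ± 1.09 (SD, n = 3) at 12 h and 17.3% ± 2.52 (SD, n = 2) at 24 h.

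In exposed cells MRPS6 also rose with time, to lower levels. Under citrate the libraries held 173 and 200.4 normalized reads at 6 h, then 689, 339.9 and 280.4 at 12 h, and 878, 797 and 1422 at 24 h. Under PEG they held 150.1 and 117 at 6 h, 499, 264 and 509 at 12 h, and 1199.7, 859.5 and 1079 at 24 h. Under bPEI they held 202, 152 and 102 at 6 h, 529.9, 412 and 359.9 at 12 h, and 681 and 557 at 24 h. Each exposed library of 24 h lay far below both NoNP libraries of 24 h, and each exposed library of 12 h lay below all 3 NoNP libraries of 12 h. At 6 h the exposed and NoNP libraries overlapped for citrate and bPEI, and both PEG libraries lay below the 3 NoNP libraries.

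**Figure D1:**
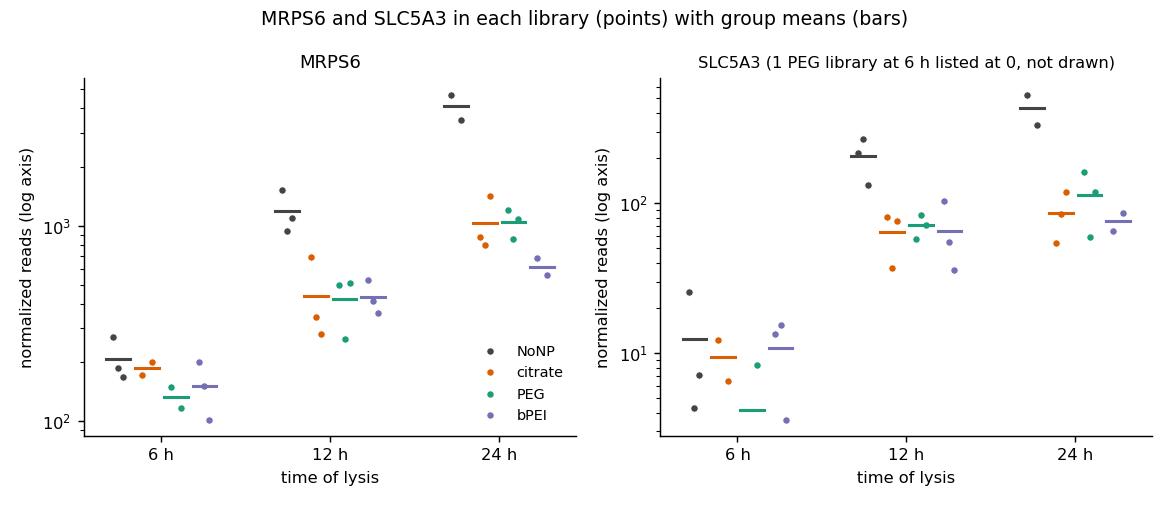
Normalized reads of MRPS6 (left) and SLC5A3 (right) on log axes against time of lysis, with 1 point per library and a bar at each group mean. MRPS6 in NoNP climbs to 4685 and 3467 at 24 h while the 8 exposed libraries of 24 h stay between 557 and 1422. SLC5A3 is likewise higher in the NoNP libraries than in every exposed library of the same time at 12 and 24 h.

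Ordered by mean, the 12 groups ran from PEG 6 h (133) through bPEI 6 h (152), citrate 6 h (187) and NoNP 6 h (208) to the exposed groups of 12 h (424 in PEG, 434 in bPEI and 436 in citrate), then bPEI 24 h (619), citrate 24 h (1032), PEG 24 h (1046), NoNP 12 h (1184) and NoNP 24 h (4076). Neighbours in this order overlapped in their libraries except at 2 steps, from bPEI 24 h to citrate 24 h and from NoNP 12 h to NoNP 24 h. The citrate and PEG groups at 24 h therefore overlapped with NoNP at 12 h.

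Against NoNP of the same time, MRPS6 was not called at 6 h, with log2 differences of -0.13 ± 0.34 for citrate, -0.62 ± 0.34 for PEG and -0.48 ± 0.30 for bPEI. At 12 h it was lower by 2.87-fold with citrate (log2 difference -1.52 ± 0.30, limma adjusted p = 0.00222), by 2.85-fold with PEG (-1.51 ± 0.30, limma adjusted p = 0.0107) and by 2.71-fold with bPEI (-1.44 ± 0.30, limma adjusted p = 0.0492). At 24 h it was lower by 4.03-fold with citrate (-2.01 ± 0.34, limma adjusted p = 0.000421), by 3.89-fold with PEG (-1.96 ± 0.34, limma adjusted p = 0.000882) and by 6.54-fold with bPEI (-2.71 ± 0.37, limma adjusted p = 2.29e-05). The citrate call at 12 h held under all 15 alternatives. The PEG call at 12 h was lost without NoNP 12 h replicate A (limma adjusted p = 0.171) and without PEG 12 h replicate B (0.0906), and the bPEI call at 12 h was lost in 7 of 15 alternatives, among them the omission of NoNP 12 h replicate A (0.475), B (0.113) or C (0.0852) and of bPEI 12 h replicate B (0.265) or C (0.456). The 24 h calls held without any 1 library, and were lost when only the compared groups were fitted (limma adjusted p = 0.0760 for citrate, 0.225 for PEG and 0.173 for bPEI).

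The steps in time were also tested within each exposure. With PEG MRPS6 rose by 1.61 ± 0.34 on the log2 scale from 6 to 12 h (limma adjusted p = 0.00223) and by 1.35 ± 0.30 from 12 to 24 h (limma adjusted p = 0.00219). With citrate it rose by 1.11 ± 0.34 from 6 to 12 h (limma adjusted p = 0.0487) and by 1.31 ± 0.30 from 12 to 24 h (limma adjusted p = 0.00397). With bPEI it rose by 1.54 ± 0.30 from 6 to 12 h (limma adjusted p = 0.000305), and the log2 difference from 12 to 24 h of 0.52 ± 0.34 was not called (limma adjusted p = 0.482). From 6 to 24 h the rise was 5.33-fold with citrate, 7.78-fold with PEG and 4.18-fold with bPEI, against 19.7-fold in NoNP. The citrate call from 6 to 12 h was lost without citrate 6 h replicate A (limma adjusted p = 0.248), 6 h replicate C (0.201), 12 h replicate A (0.250) and 12 h replicate B (0.0574), and the PEG call from 6 to 12 h was lost without PEG 6 h replicate C (0.0554).

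Whether the effect of exposure on MRPS6 differed between times was tested as a term of its own. In the F test of the interaction of exposure and time over all 3 coatings and times, MRPS6 had a limma adjusted p of 0.108, and none of the 70 genes was called, where 0.665% of all tested genes were. Before adjustment 6 of the 70 had a p under 0.05, where 12.9% of all tested genes did, and MRPS6 and MRPL4 had the smallest. The difference of effects between pairs of times, chosen after the values were seen, was -2.23 ± 0.48 on the log2 scale for bPEI at 24 h minus 6 h (limma adjusted p = 0.00644), and 5.79% of tested genes were called there. For citrate at 24 h minus 6 h it was -1.88 ± 0.48 (limma adjusted p = 0.0543) and for PEG -1.34 ± 0.48 (limma adjusted p = 0.300), neither called.

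The coatings were compared with each other at the common dose in 9 pairs, 3 at each time. MRPS6 was not called in any. At 6 h the differences were 0.49 (95% interval -0.26 to 1.24) for citrate minus PEG, 0.35 (-0.34 to 1.03) for citrate minus bPEI and -0.15 (-0.83 to 0.54) for PEG minus bPEI on the log2 scale. At 12 h the 3 group means lay close together, with differences of -0.01 (95% interval -0.62 to 0.61) for citrate minus PEG, -0.09 (-0.70 to 0.53) for citrate minus bPEI and -0.08 (-0.69 to 0.54) for PEG minus bPEI on the log2 scale. At 24 h MRPS6 was 0.70 higher with citrate than with bPEI (0.01 to 1.38, limma adjusted p = 0.427) and 0.75 higher with PEG than with bPEI (0.06 to 1.44, limma adjusted p = 0.542), and the citrate and PEG means differed by -0.05 (-0.67 to 0.56). Both bPEI libraries of 24 h lay below all 6 citrate and PEG libraries of that time. None of the 70 genes was called in any of the 9 pairs by limma or by edgeR, where 0 to 1.39% of all tested genes were called by limma. At an unadjusted p under 0.05, 0 to 14 of the 70 genes passed, the largest count in citrate against bPEI at 12 h (14 of 70, where 17.4% of all tested genes passed). Without bPEI 6 h replicate B and NoNP 24 h replicate B, 6 calls were made over the 9 pairs, 1 for citrate against PEG at 12 h (0.472% of tested genes were called) and 5 for citrate against bPEI at 12 h (11%).

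SLC5A3, like MRPS6, rose in NoNP from 6 to 12 h. In NoNP its libraries held 25.6, 4.31 and 7.13 normalized reads at 6 h, 216, 267 and 133 at 12 h, and 529 and 333 at 24 h. In exposed cells no library of 12 or 24 h exceeded 161, and 1 PEG library of 6 h is listed at 0. The rise from 6 to 12 h was 18.9-fold (log2 change 4.24 ± 0.63, limma adjusted p = 1.97e-05), and the log2 change from 12 to 24 h was 1.09 ± 0.71 (limma adjusted p = 0.302). Against NoNP at 24 h its log2 differences were -2.35 ± 0.71 with citrate (limma adjusted p = 0.0516), -1.99 ± 0.71 with PEG (0.126) and -2.47 ± 0.77 with bPEI (0.0606), none called although no exposed library overlapped with NoNP. Of the 8 osmotic stress and inositol genes listed, chosen with the MRPS6 and SLC5A3 values known, 7 were tested. SLC5A3 (limma adjusted p = 1.01e-06), SLC6A12 (the betaine transporter, 0.0114) and AKR1B1 (aldose reductase, which makes sorbitol, 0.000323) rose in NoNP from 6 to 24 h, by 5.33, 3.68 and 3.25 on the log2 scale, where 18.6% of all tested genes were called. The log2 changes of the other 4 were -1.11 for NFAT5, 2.62 for SLC38A2, 0.07 for HSPA4L and -1.03 for ISYNA1, none called. AKR1B1 was lower with bPEI than in NoNP at 24 h (log2 difference -2.84 ± 0.70, limma adjusted p = 0.0145), and no other gene of that list was called against NoNP.

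Likeness to MRPS6 was measured as Pearson r over the 12 group means on the log2 scale, as a description over groups that share libraries of one experiment. Among the 5 most similar of all tested genes were HSPB8 (a small heat shock protein, r = 0.987), ORMDL3 (a regulator of sphingolipid synthesis, 0.979), INPP1 (an inositol phosphate phosphatase, 0.971) and MYZAP (0.969). SLC5A3 stood at 0.938, in position 20. Among the mitochondrial ribosomal protein genes the closest were MRPS10 (0.894), MRPS14 (0.663) and MRPS5 (0.585), and 38 of the other 69 tested had an r below 0, with a median of -0.04. The SD of MRPS6 over the 12 group means was 1.46 on the log2 scale, which 2.51% of tested genes reached. The next gene of the family was MRPS30 at 1.18, with at least 1 library at 0 reads and a mean of 18.5 normalized reads. Its SD among libraries within groups was 1.27, above that over the group means. The family's median was 0.480 against 0.583 for all tested genes, which were not matched for level. After MRPS30 came MRPL2, MRPL1 and MRPL10, each with at least 1 library at 0 reads and a mean of 5.81 to 33.5 normalized reads, and the smallest SDs were those of MRPL43 (0.122), MRPL33 (0.155), MRPS25 (0.172), MRPS35 (0.203) and MRPL23 (0.214).

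Few other genes of the family were called against NoNP, where at most 6.12% of all tested genes were called. At 6 h their log2 differences ran from -2.62 (with citrate) to 2.95 (with bPEI), so genes not called may still have moved. At 6 h none of the 70 was called with any coating by limma or by edgeR, where 0.279% of tested genes were called with citrate, 0.0215% with PEG and 2.01% with bPEI (0.686% higher and 1.32% lower), and 10, 1 and 12 of the 70 had an unadjusted p under 0.05 (14.3%, 1.43% and 17.1%, against 10.8%, 8.44% and 19.0% of all tested genes). The smallest p at 6 h were those of MRPL13 and MRPS2 with citrate (log2 differences -2.62 and -2.04), of MRPS31 and MRPL28 with PEG (-0.76 and 1.11), and of MRPL13 and MRPS31 with bPEI (-2.00 and -0.93), with limma adjusted p from 0.0927 to 0.596. At 12 h MRPS6 was the 1 gene called with each coating, 1.43% of the family, where 6.12% of all tested genes were called with citrate (3.88% higher and 2.24% lower), 0.654% with PEG (0.279% and 0.375%) and 0.0965% with bPEI (0.0429% and 0.0536%). At an unadjusted p under 0.05 the counts were 15, 2 and 3 at 12 h (21.4%, 2.86% and 4.29%, against 20.9%, 10.3% and 4.78% of all tested genes). At 24 h they were 8, 9 and 11 (11.4%, 12.9% and 15.7%, against 17.6%, 16.6% and 18.2%). The median log2 difference of the 70 at 12 h was -0.18 with citrate, -0.01 with PEG and 0.11 with bPEI, against -0.02, -0.01 and 0.01 over all tested genes. MRPS6 ranked lowest of the 70 with PEG and bPEI and 68 from the top with citrate. Without bPEI 6 h replicate B and NoNP 24 h replicate B, 9 of the 70 were called with citrate at 12 h, where 15.2% of all tested genes were. The hepatocyte markers ALB (-0.81) and SERPINA1 (-0.65) and the macrophage marker LYZ (-1.01) were also lower with citrate at 12 h, and their part in these differences was not tested.

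At 24 h the calls beyond MRPS6 were few and went mostly up. With citrate 3 genes were higher and MRPS6 lower (5.71% of the 70, where 4.20% of all tested genes were called, 2.8% higher and 1.4% lower). With PEG 1 was higher and MRPS6 lower (2.86%, against 2.83%, 2.12% higher and 0.708% lower), and with bPEI 1 was higher and 2 lower (4.29%, against 4.55%, 3.05% higher and 1.5% lower). These shares lay near the background, so the count is no result about the family. MRPS6 had the lowest log2 difference of the 70 at 24 h with each coating, 2.19 below the median of the others with citrate, 2.05 with PEG and 2.96 with bPEI. When libraries were scaled to equal totals, the median of all genes at 24 h shifted from 0.04 to 0.21 with citrate, from 0.05 to 0.18 with PEG and from 0.10 to 0.20 with bPEI, and MRPS6 stood at -1.84, -1.82 and -2.60, called in each. FGB, 1 of the 9 hepatocyte markers listed, was higher than in NoNP at 24 h with all 3 coatings (log2 differences 1.35, 1.46 and 2.65). The mesenchymal marker PDGFRB was lower with bPEI (-1.54). The part of both genes in these differences was not tested.

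**Figure D2:**
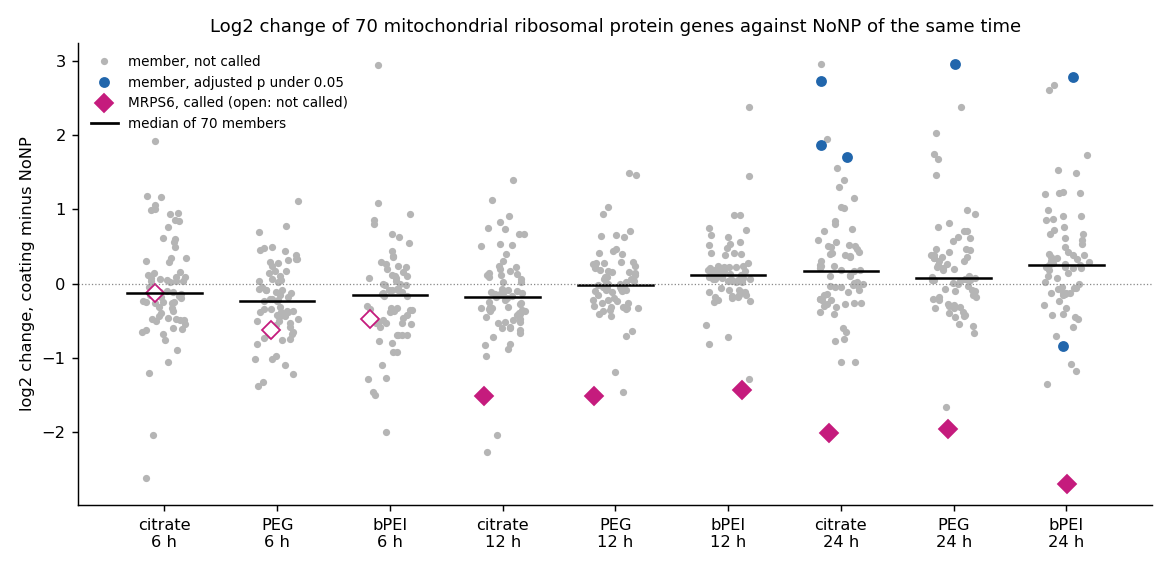
Log2 difference from NoNP of the same time for the 70 tested mitochondrial ribosomal protein genes, 1 column per coating and time, with a line at the median and MRPS6 as a diamond (filled where called). MRPS6 lies within the cloud at 6 h and is the lowest point of the PEG and bPEI columns at 12 h and of all 3 columns at 24 h.

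MRPL1, a protein of the mobile stalk beside the exit of spent tRNA, was the gene called higher with all 3 coatings at 24 h. Its NoNP libraries of 24 h held 8.02 and 0 normalized reads, from 5 and 0 reads. The exposed libraries of 24 h held 27.1, 58.8 and 3.69 with citrate, 21.8, 15.7 and 32.8 with PEG, and 17.3 and 22.7 with bPEI. PEG and bPEI libraries lay above both NoNP libraries, and the citrate libraries overlapped with them. The log2 differences were 2.73 ± 0.75 with citrate (limma adjusted p = 0.0319), 2.96 ± 0.75 with PEG (0.0244) and 2.79 ± 0.83 with bPEI (0.0438), and all 3 comparisons share the same NoNP libraries. The 3 calls were lost in edgeR, with a pseudocount of 5 and without NoNP 24 h replicate B, and each was also lost without at least 1 exposed library (citrate replicate A or B, PEG replicate C, bPEI replicate A or B).

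MRPL45, which ties the ribosome to the inner membrane, held 112, 51.8 and 81.2 normalized reads with citrate at 24 h and 30.5 and 17.4 in NoNP (log2 difference 1.71 ± 0.45, limma adjusted p = 0.0235). MRPS18B, 1 of 3 human genes related to a single bacterial small-subunit protein, held 89.5, 56.0 and 59.0 against 8.02 and 37.0 (1.87 ± 0.55, limma adjusted p = 0.0461). Neither overlapped between these groups, and both calls were lost in edgeR. MRPL45 lost its call without NoNP 24 h replicate B or citrate replicate A or C, and MRPS18B without NoNP 24 h replicate A or any 1 citrate library. MRPL41, a large-subunit protein without a bacterial counterpart, was the other gene lower with bPEI at 24 h: its libraries held 868 and 795 normalized reads against 1335 and 1677 in NoNP (-0.85 ± 0.24, limma adjusted p = 0.0342). That call was lost in edgeR, with equal library totals, without NoNP 24 h replicate B and without either bPEI library. Without NoNP 24 h replicate A the number of genes of the family called at 24 h was 12 with citrate, 7 with PEG and 18 with bPEI, where 8.78%, 8.75% and 17.5% of all tested genes were called.

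Changes over time were more frequent than differences from NoNP, and called genes went both ways. The 70 genes had a median log2 change from 6 to 12 h of 0.17 in NoNP and 0.12 with citrate. With PEG and with bPEI it was 0.50, with bPEI in part through 6 h replicate B. Over all tested genes it was 0.03, 0.01, 0.003 and 0.01 in these steps. With PEG 53 and with bPEI 50 of the 70 had a log2 change above 0. From 12 to 24 h the median was -0.02 with citrate, -0.21 with PEG and -0.32 with bPEI, against -0.03, -0.01 and 0.0002. From 6 to 12 h in NoNP 6 of the 70 genes rose and 2 fell (11.4%, where 11.8% of all tested genes were called, 4.89% higher and 6.87% lower). MRPL35 held 51.1, 32.3 and 45.0 normalized reads at 6 h and 132, 200.9 and 110.3 at 12 h, with no overlap (log2 change 1.74 ± 0.38, limma adjusted p = 0.00206), and its call held under all 15 alternatives. The other genes that rose beside MRPS6 were MRPS18A (0.64), MRPS31 (0.99), MRPS18C (0.75) and MRPL50 (1.31 on the log2 scale), and those that fell were MRPL24 (-1.70) and MRPS27 (-0.64, a protein with RNA-binding repeats). MRPS31, MRPS18C and MRPS27 each lost the call whichever of the 6 libraries was left out, and leaving out any 1 of the 6 libraries left 2 to 4 genes called. The shares of all tested genes called in those fits are not given here. FGB, 1 of the 9 hepatocyte markers listed, fell in NoNP at each step (by 1.62 and 2.21 on the log2 scale). The others are not given here, and the part of FGB in the changes over time was not tested.

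**Figure D3:**
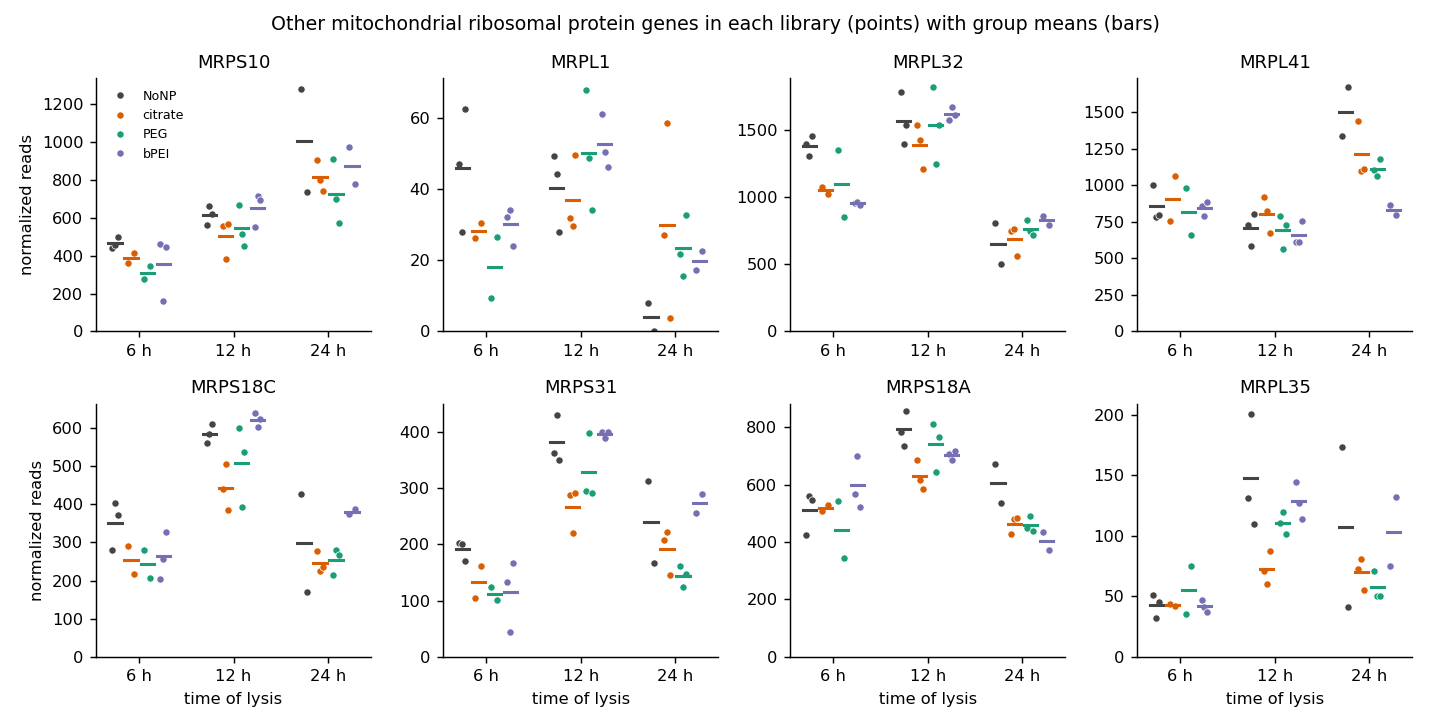
Normalized reads of 8 mitochondrial ribosomal protein genes other than MRPS6 in each library (points) with group means (bars), by time of lysis on linear axes that start at 0. MRPS10 rises with time in every exposure, MRPL32, MRPS18C, MRPS31 and MRPS18A are highest at 12 h, and the bPEI libraries of MRPL41 at 24 h lie below the NoNP libraries.

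From 12 to 24 h in NoNP 2 genes rose and 8 fell (14.3%, where 18.3% of all tested genes were called, 8.09% higher and 10.2% lower), and the median log2 change of the 70 was -0.47 against -0.11 over all tested genes. MRPL32, a large-subunit protein that a protease of the inner membrane must cut before assembly, held 1783, 1396 and 1540.2 normalized reads at 12 h and 807 and 502 at 24 h. The groups were far apart (log2 change -1.30 ± 0.21, limma adjusted p = 4.95e-05). MRPL41 went from 729, 583 and 803 to 1335 and 1677, the 1 gene besides MRPS6 that rose (1.10 ± 0.22, limma adjusted p = 0.000542). MRPL1 fell by 3.75 on the log2 scale, MRPL17 by 1.34, MRPS18C by 1.12, MRPL50 by 1.71, MRPS34 by 0.98, MRPS15 by 2.82 and MRPS17 by 1.89. Without NoNP 24 h replicate B 4 genes were called (8.14% of all tested genes were), and these 7 were all lost. Without NoNP 24 h replicate A 23 were called (30.9% of all tested genes were), and MRPL32, MRPL41 and MRPS6 held under every left-out library. The MRPL32 and MRPL41 calls were lost when only the compared groups were fitted.

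Over the whole span from 6 to 24 h in NoNP 3 genes rose and 5 fell (11.4%, where 18.6% of all tested genes were called, 7.79% higher and 10.8% lower). MRPS10, a small-subunit protein with a bacterial counterpart, rose from 438, 457 and 498 normalized reads to 1277 and 733 (log2 change 1.06 ± 0.31, limma adjusted p = 0.0130). Its call was lost without NoNP 24 h replicate A. MRPL41 rose by 0.80, and MRPL32 (-1.12), MRPL1 (-3.89), MRPL4 (-0.98), MRPS7 (-0.81) and MRPL17 (-0.81 on the log2 scale) fell. MRPL4 held 2841, 2081 and 2341 normalized reads at 6 h and 1388 and 1061 at 24 h (limma adjusted p = 0.00739), a call lost without NoNP 24 h replicate B, as were those of MRPL41, MRPS7 and MRPL17. Without NoNP 24 h replicate A 20 genes were called, where 23.2% of all tested genes were.

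**Figure D4:**
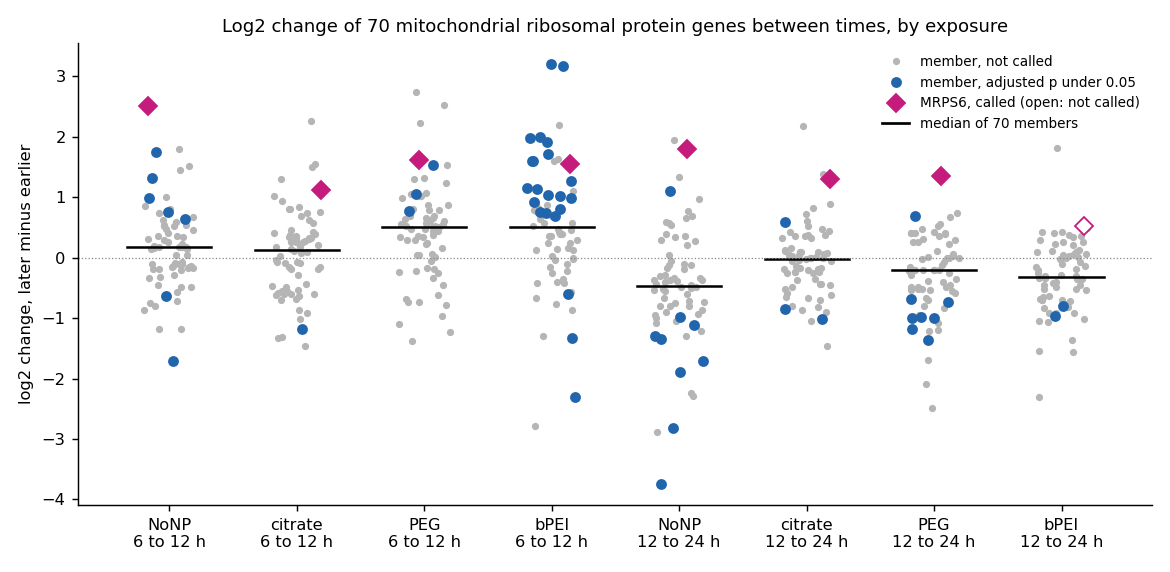
Log2 change between successive times for the 70 tested genes in each exposure, with a line at the median, called genes in blue and MRPS6 as a diamond. The bPEI step from 6 to 12 h holds the most called genes, 23, and the NoNP step from 12 to 24 h has the lowest median, -0.47. Both values depend on single libraries named in the text.

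In exposed cells the steps differed in number. With citrate 1 gene rose and 1 fell from 6 to 12 h, where 5.08% of tested genes were called (2.45% higher and 2.64% lower). From 12 to 24 h with citrate 2 rose and 2 fell (11.7% of tested genes, 5.3% higher and 6.38% lower), and over the whole span 2 rose and 1 fell (11.7%, 5.51% higher and 6.21% lower). With PEG 4 rose from 6 to 12 h (9.82%, 4.31% higher and 5.51% lower), 2 rose and 7 fell from 12 to 24 h (14.8%, 7.5% higher and 7.35% lower), and 2 rose over the whole span (9.96%, 4.56% higher and 5.41% lower). With bPEI 23 were called from 6 to 12 h (28.7%, 15.5% higher and 13.2% lower), 2 fell from 12 to 24 h (3.37%, 1.75% higher and 1.62% lower), and 5 rose and 2 fell over the whole span (17.6%, 9.18% higher and 8.46% lower). MRPL32 fell from 12 to 24 h in each exposure, by 1.01 with citrate, 0.99 with PEG and 0.97 with bPEI on the log2 scale, against 1.30 in NoNP. The bPEI call was lost without either bPEI library of 24 h. MRPS10 rose from 6 to 24 h in each, by 1.07 with citrate (limma adjusted p = 0.0193), 1.21 with PEG (0.00886) and 1.44 with bPEI (0.00162). This call was lost with citrate without 6 h replicate A, 6 h replicate C or 24 h replicate A, and with PEG without 6 h replicate A or 24 h replicate A. MRPS10 was not called against NoNP at any time, where its log2 differences lay between -0.59 and 0.08. MRPS18C and MRPL41 were called from 12 to 24 h with citrate and with PEG: MRPS18C fell by 0.84 and 0.99, and MRPL41 rose by 0.59 and 0.69. With citrate MRPL41 lost its call without any 1 library but 12 h replicate A, and MRPS18C without 12 h replicate A or B or 24 h replicate B or C. With PEG MRPL41 lost it without 12 h replicate B or 24 h replicate C. With PEG MRPS31 (-1.18) and MRPS18A (-0.69) fell in that step too, with 3 further genes. MRPS31 lost its call there without PEG 12 h replicate B, and MRPS18A without PEG 12 h replicate A. MRPL38 fell from 6 to 12 h with citrate (-1.18, limma adjusted p = 0.0442), MRPL18 over the whole span with citrate (-0.80, 0.0193), and MRPS18A from 12 to 24 h with bPEI (-0.81, 0.0229), a call lost whichever of the 5 libraries was left out. The MRPL38 call was lost without citrate 6 h replicate A or C or 12 h replicate A or C, and the MRPL18 call without citrate 6 h replicate A or 24 h replicate C. The counts in these steps also moved with single libraries. The shares of all tested genes called in those left-out fits are not given here, so the counts that follow are no result about the family. Without PEG 6 h replicate A or 24 h replicate A 1 gene was called over the whole span with PEG. Without PEG 6 h replicate C none was called from 6 to 12 h with PEG, and without PEG 12 h replicate A 2 were. From 12 to 24 h with PEG 5 were called without PEG 12 h replicate A, 12 h replicate B or 24 h replicate C. With citrate 0 or 1 gene was called from 6 to 12 h without any 1 library, and 2 from 12 to 24 h without citrate 12 h replicate B, 24 h replicate B or 24 h replicate C. With bPEI 1 gene was called from 12 to 24 h without any 1 library, and 3 to 11 over the whole span, the lowest without bPEI 6 h replicate B or 24 h replicate B.

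The bPEI step from 6 to 12 h held the largest number of calls, 20 higher and 3 lower (32.9% of the 70 against 28.7% of all tested genes). Of all tested genes 15.5% were called higher and 13.2% lower, so with all libraries the calls in the family leaned further up. The median log2 change was 0.50 for the 70 and 0.01 for all tested genes. MRPS31 rose most clearly, from 133, 44.4 and 167 normalized reads to 399, 389.8 and 399 (log2 change 1.98 ± 0.31, limma adjusted p = 2.44e-05), and the 12 h libraries lay far above those of 6 h. MRPS18C (1.26) and MRPL52 (1.60) also rose, and MRPS26 (-2.30), MRPL38 (-1.33) and MRPS35 (-0.60) fell. MRPS26 held 86.2, 140.1 and 122 normalized reads at 6 h and 17.1, 32.3 and 20.1 at 12 h. Without bPEI 6 h replicate B, a library of high residual variance, 10 genes were called, 8 higher and 2 lower, and that library held the lowest MRPS31 value of all 32. MRPS31, MRPS18C and MRPS26 kept their calls. Without bPEI 12 h replicate A 14 were called and without bPEI 12 h replicate B 15. The shares of all tested genes called in these left-out fits are not given here, so their counts are no result about the family. With PEG MRPS31 also rose from 6 to 12 h, from 124 and 101 to 295, 398 and 292 normalized reads (1.53 ± 0.35, limma adjusted p = 0.00456).

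Over all 12 groups 24 of the 70 genes passed the F test, or fewer than the background share of 47.2% of tested genes. MRPS6 had by far the smallest p (limma adjusted p = 1.01e-12), followed by MRPL32 (4.17e-07), MRPS31 (1.10e-05), MRPS18C (1.89e-05) and MRPS10 (0.000155). The F test among the 3 coatings called none of the 70 at 6, 12 or 24 h, where 0.107%, 0.418% and 0.150% of tested genes were called and 1, 7 and 3 of the 70 had an unadjusted p under 0.05, where 5.69%, 12.2% and 9.3% of tested genes did. MRPL4 had the smallest p of the family at 12 h (limma adjusted p = 0.0911). Its libraries held 2553, 3800 and 2228 normalized reads with citrate, 1562, 967 and 1827 with PEG and 1958, 1871 and 1882 with bPEI.

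**Figure D5:**
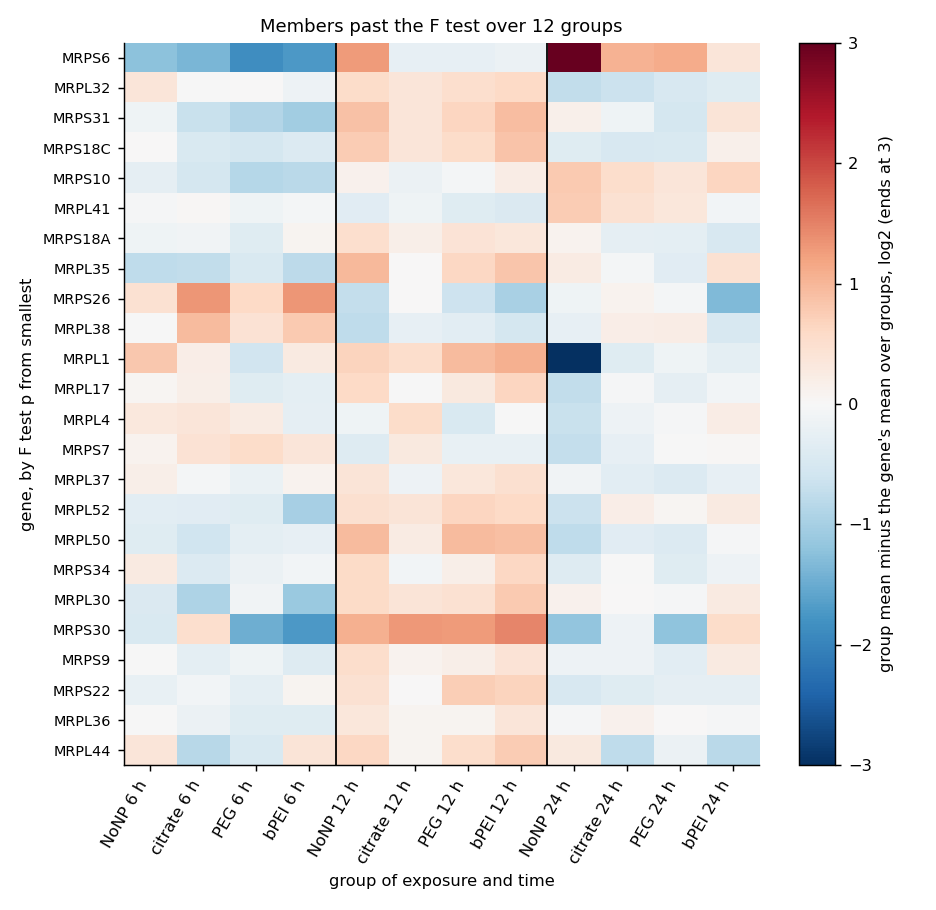
Group means of the 24 genes past the F test over 12 groups, as log2 minus the gene's mean over groups, with genes ordered by p and groups by time (colours end at 3). MRPS6 runs from low at 6 h to high in NoNP at 24 h, and MRPS31 and MRPS18C below it are highest at 12 h in each exposure.

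Other genes of mitochondrial translation were listed by role. In NoNP from 12 to 24 h DAP3, a small-subunit GTP-binding protein, rose by 0.93 on the log2 scale (limma adjusted p = 0.0121) and PTCD3, a small-subunit protein with RNA-binding repeats, fell by 0.79 (0.00676), of 5 ribosomal protein genes without an MRP symbol. In that step 18.3% of all tested genes were called, 8.09% higher and 10.2% lower, against which the counts of these lists are to be read. MRRF, which recycles ribosomes after termination, fell by 1.01 (limma adjusted p = 0.0211), 1 of the 16 translation factors. Of 23 tested assembly and rRNA modification genes, C1QBP fell by 1.31 and NOA1, a GTPase of small-subunit assembly, rose by 1.16, and with citrate at 12 h MRM1, an rRNA methyltransferase, was higher by 1.22 (limma adjusted p = 0.0127). Of 13 tested genes of mitochondrial transcription and DNA maintenance, TFB2M (a transcription factor), SSBP1 (the single-strand DNA-binding protein) and GABPA fell and POLRMT (the mitochondrial RNA polymerase) rose in NoNP from 12 to 24 h, with log2 changes of -1.56, -1.49, -0.75 and 1.65. PPARGC1A, a coactivator of mitochondrial genes, rose in NoNP from 6 to 12 h by 2.77 (limma adjusted p = 2.70e-05). TFB2M was higher with citrate than in NoNP at 24 h (1.45, limma adjusted p = 0.0324) and MGME1, a mitochondrial exonuclease, lower at 12 h (-0.82, limma adjusted p = 0.0276). At 6 h with bPEI GABPB1 was lower (-1.33) and TRUB2 higher (1.82). No alternative is given for the calls of these lists. Those at 24 h rest on the NoNP pair whose libraries differ from each other, and those with bPEI at 6 h include replicate B. The mRNAs of the mitochondrial genome were not analysed here.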

How the data were processed

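TempO-Seq libraries of HepG2 lysates were analysed. The authors deposited a signal table of 13133 genes in 32 libraries. Its values show that whole reads were divided by 1 size factor per library: reads were recovered for 100.0% of values within 0.01 reads. The sources used here name no aligner, counting method, genome build or oligo position. Values were tested as log2(value + 1) with limma 3.58.1 (R 4.3.3; trend, robust), 1 mean for each of 12 groups, for 9324 genes with a mean of at least 5, at a threshold of 0.05. edgeR 4.0.16 on the recovered reads was an alternative and called 0.0215% to 28.2% of genes in the comparisons with NoNP and between times. Alternatives covered the pseudocount, filters, scaling, a replicate block, only the groups compared, each library left out, and bPEI 6 h replicate B and NoNP 24 h replicate B left out together (NoNP 24 h replicate A has the same residual variance as B). Scripts were tested on simulated data. MRPS6, genes past the threshold up to a set number, and genes most like MRPS6 were named. The members and lists were chosen with earlier results of these data known. A gene that this rule names is not reported here.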

Additional observations from a re-analysis of the deposited data

Results flagged for a closer look

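The effect of bPEI on MRPS6 at 24 h differed from its effect at 6 h by -2.2319 on the log2 scale, a test of the difference itself (limma adjusted p = 0.00644). MRPS6 was 0.48 below NoNP at 6 h and 2.71 below it at 24 h. Leaving out bPEI 24 h replicate B gave -2.09 (limma adjusted p = 0.0634), and the difference stayed called without any other 1 of the libraries of these groups.

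The effect of bPEI on MRPL4 rose by 1.4562 between the same times (limma adjusted p = 0.0214). Its libraries with bPEI held 1582, 1882 and 1379 normalized reads at 6 h and 1646 and 2999.6 at 24 h. The call was lost without NoNP 24 h replicate B (1.26, limma adjusted p = 0.133) and without bPEI 24 h replicate B (1.02, limma adjusted p = 0.195).

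The effect of citrate on MRPS15 rose by 5.0031 from 12 to 24 h (limma adjusted p = 0.0445). Its libraries with citrate held 28.1, 6.12 and 4.42 normalized reads at 12 h and 52.0, 54.6 and 34.4 at 24 h, and the NoNP libraries of 24 h held 35.3 and 0. Without NoNP 24 h replicate B the difference was 2.41 (limma adjusted p = 0.380). The call held only without NoNP 24 h replicate A (7.59) or citrate 12 h replicate A (5.75), and leaving out any other 1 of the libraries of these groups ended it. All 3 differences were tested after the values were seen, in 9 differences of this kind.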

How the results depend on the processing

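Of the MRPS6 differences from NoNP, the 12 h bPEI value was no longer called with a mean of at least 20 (-1.44) or quantile normalization (-1.39), and the 24 h values were not called when only the groups compared were fitted (-2.01 citrate, -1.96 PEG, -2.71 bPEI). The cause was not tested, beyond the smaller number of libraries in the last fit. Leaving out 1 library gave -1.67 to -1.20 for PEG and -1.59 to -1.24 for bPEI at 12 h, and -0.27 to 0.0661 for citrate at 6 h, with the sign reversed without NoNP 6 h replicate A. The difference of the bPEI effects at 24 and 6 h ran from -2.49 to -2.00.

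With only the groups compared, the number of genes of the family called was 1 (citrate 6 h), 4 (citrate 12 h), 0 at 24 h with each coating, and 15, 1 and 1 in NoNP from 6 to 12, 12 to 24 and 6 to 24 h. Without bPEI 6 h replicate B and NoNP 24 h replicate B it was 1 (citrate 6 h), 9 (citrate 12 h), 6 (PEG 24 h), 5 (NoNP 12 to 24 h) and 6 over the 9 pairs of coatings. edgeR called 1 at 24 h with each coating. Quantile normalization gave 0 (bPEI 12 h), 2 (citrate 24 h) and 5 (NoNP 6 to 12 h), a mean of at least 20 gave 0 (bPEI 12 h), no filter gave 5 (NoNP 6 to 12 h), equal library totals gave 2 (citrate 12 h) and a pseudocount of 5 gave 1 (PEG 24 h). The shares of all tested genes called under these settings are not set beside these counts. The counts therefore show only how calls moved with the processing and are no result about the family.

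Without 1 library the counts ran from 0 to 1, 1 to 2 and 1 to 12 with citrate at 6, 12 and 24 h, from 0 to 1 and 1 to 7 with PEG at 12 and 24 h, and from 0 to 3, 0 to 1 and 1 to 18 with bPEI at 6, 12 and 24 h. In NoNP they ran from 2 to 4 (6 to 12 h), 4 to 23 (12 to 24 h) and 6 to 20 (6 to 24 h), and over the pairs of coatings from 0 to 1. The share of all tested genes called also moves with the library left out and is not set beside these ranges, so they are no result about the family. Alternatives for steps within a coating, pairs of coatings and differences of effects were chosen after seeing the data.

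Deviations of same-lettered libraries from their group means correlated at -0.114 to 0.288, over 0.1 in 3 of 22 pairs. Deviations within groups of 2 or 3 libraries are tied to each other, so these values cannot tell whether replicate letters mark pairs. With a replicate block MRPS6 at 24 h was -1.98 with citrate, -1.93 with PEG and -2.71 with bPEI, no MRPS6 call against NoNP changed, and 6, 13 and 9 genes were called in the NoNP steps. Of the 70 tested genes, 10 had a mean under 20 normalized reads, where a few reads set a fold change.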
